A study of Homo sapiens with 8 samples.

Results

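The 40 genes described here encode the degradative enzymes of the lysosome, the proteins of its limiting membrane and the proton pump that acidifies it. They were found in the deposited count table by their gene symbols in GENCODE 44, an annotation of the human genome build GRCh38, and all 40 of them were among its 58302 genes. The list holds 17 lumenal hydrolases, 3 other lumenal proteins, 6 membrane proteins and 14 subunits and accessory proteins of the vacuolar ATPase (V-ATPase).

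RNA-seq was performed on total RNA of A549 cells, an established line of human lung adenocarcinoma, in 8 libraries. A group of 4 libraries is labelled siAPEX1, for cells transfected with an siRNA against the mRNA of the DNA repair enzyme APE1, and the other 4 are labelled siCTRL, for the scramble control siRNA. All cells were therefore transfected, and RNA was taken at a single time after it. The study calls the libraries of a group biological replicates. The labels do not say whether they came from separate cultures, and if they did not, the tests measure a spread that may be technical.

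The lysosome digests what endocytosis, phagocytosis and autophagy bring to it. Its hydrolases are made in the endoplasmic reticulum, tagged with mannose 6-phosphate in the Golgi and carried to an acidic lumen in which they work, while heavily glycosylated membrane proteins line the inside of its membrane. The V-ATPase pumps protons into the lumen with a V1 sector in the cytosol, which splits ATP, and a V0 sector in the membrane, through which the protons pass. Many of these genes are known to be transcribed under the transcription factor TFEB and its relatives, which bind the E-box letters CACGTG and longer motifs around them.

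Library size and label ran together in these data. The gene counts of a library summed to 1348386 at the lowest and 1949886 at the highest, and each library labelled siAPEX1 was smaller than each library labelled siCTRL. APEX1 itself had 47 to 64 counts in the libraries labelled siCTRL and 19470 to 27916 in those labelled siAPEX1, the reverse of what silencing should give. Reads of the transfected siRNA, which is made against this mRNA, would be counted on the gene too, and the table does not tell them from reads of the mRNA, so these counts do not check the silencing. Every direction below is that of the libraries as labelled. Markers of A549 cells were all detected, 13 of 13, with a summed level of 1793 to 1972 CPM (counts relative to the size of the library, scaled by the trimmed mean of M values, TMM) in the libraries labelled siCTRL and 1649 to 1798 in those labelled siAPEX1. The sum hides changes of single markers. In the test described below, 12 of them were tested, and 3 were called higher and 5 lower, where 31.7% of all genes tested were called. Macrophages are rich in lysosomes, and markers of them had few counts in these cells of a single line. The 8 macrophage markers summed to 8 to 14 counts in each library labelled siCTRL and 1 to 4 in each labelled siAPEX1. CD163, MRC1 and C1QA were at 0 throughout, and CD14 and CD68 gave most of these counts. The part of this difference in the results was not tested. The 4 fibroblast markers summed to 3 to 14 and 2 to 4 counts, and the 3 endothelial markers to 0 to 1 and 0 counts. Since the cells were of a single line, these counts are not read as numbers of other cells.

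The 40 genes took a small share of each library, 0.114% to 0.121% of all counts under the label siCTRL and 0.0764% to 0.0884% under the label siAPEX1. Nuclear protein-coding genes other than APEX1 as a whole also took a smaller share there, 12.01% to 12.7% against 14.99% to 15.7%. Within the counts of those protein-coding genes, the lysosomal genes took 0.735% to 0.780% against 0.631% to 0.696%, and the ranges of the groups did not overlap. A single gene, CD63, gave 37.6% to 47.6% of the lysosomal counts under the label siCTRL and 31.1% to 36.0% under the label siAPEX1. These shares are therefore not read as a trait of the 40 genes as a set.

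Of the 40 genes, 30 had enough counts to be tested and 10 did not. The test was edgeR's quasi-likelihood test on the counts of all 5368 genes that passed the filter on low counts, scaled between libraries by TMM factors, with p-values adjusted over all of them by the method of Benjamini and Hochberg. At an adjusted p of at most 0.05, 10 of the 30 tested genes (33.3%) were called, against 31.7% of all genes tested and 28.2% of the nuclear protein-coding genes tested, so the share of lysosomal genes called lay near the background. CTSA, CTSD, CTSZ, GAA, CD63 and ATP6V0E1, 6 genes, fell, where the background of lower calls was 15.8% of all genes and 15.9% of protein-coding genes. PSAP, SCARB2, LAMP2 and ATP6V1A, 4 genes, rose, where the background of higher calls was 15.9% and 12.4%. When a log2 fold change of 1 or more in either direction was required as well, 2 genes passed, CTSA and ATP6V0E1, beside 9.28% of all genes. The CPM ranges of the groups did not overlap for 9 of the 30 genes, beside 28.9% of all genes.

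Split by role, all 4 called hydrolases were lower and 0 were higher, and of the 5 tested membrane proteins 2 were called higher and 1 lower. The median log2 fold change was -0.26 over the 12 tested hydrolases, 0.15 over the 3 other lumenal proteins, 0.34 over the 5 membrane proteins and -0.01 over the 10 V-ATPase genes, beside -0.0035 over all genes tested. Counting estimates alone, called or not, 10 of the 12 hydrolases lay below 0 and 4 of the 5 membrane proteins above 0. CTSA, CTSC, CTSZ and GAA, all below 0, passed the filter through the libraries labelled siCTRL, and without them 6 of 8 hydrolases lay below 0 with a median of -0.09, a choice made after the values were seen. Some of these calls depend on the scaling. With library sizes alone in place of TMM factors the median of all genes moved to -0.34 and the members split into 1 call higher and 12 lower, the higher calls falling from 50.3% to 14.9% of the calls over all genes.

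**Figure D1:**
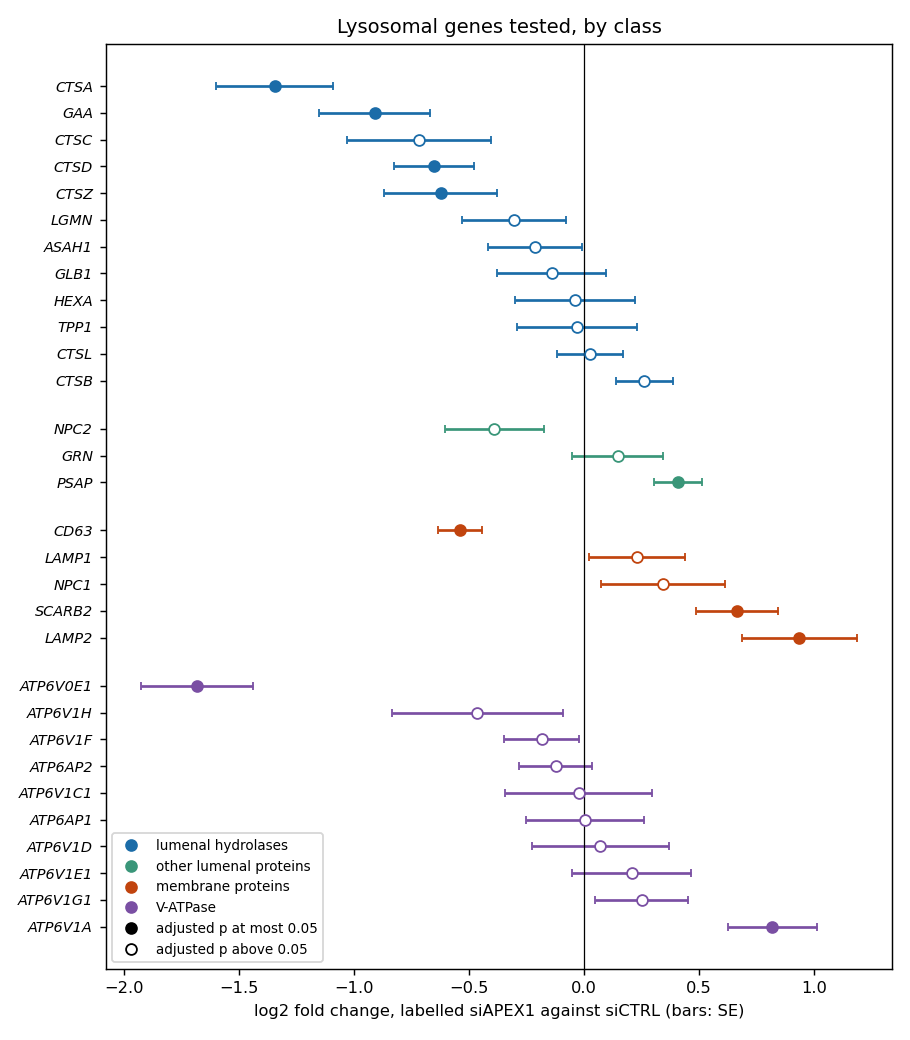
Log2 fold change of the libraries labelled siAPEX1 against those labelled siCTRL for the 30 tested genes (horizontal axis), 1 gene a row and coloured by class, with the standard error (SE) as a bar and filled points for an adjusted p of at most 0.05. The filled points of the hydrolases all lie below 0, while CD63 at -0.54 and ATP6V0E1 at -1.68 lie apart from the rest of their classes.

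Among the hydrolases the largest fall was that of CTSA (ENSG00000064601, chromosome 20 from 45890144 to 45898949), the serine carboxypeptidase cathepsin A, which also protects beta-galactosidase and neuraminidase from degradation. It had 37, 33, 36 and 23 counts in the libraries labelled siCTRL and 6, 10, 8 and 8 in those labelled siAPEX1. The groups did not overlap, and the levels were 16.0 ± 2.45 CPM against 6.29 ± 1.35 CPM (mean ± SD, n = 4 each). Its log2 fold change was -1.34 (SE 0.255, edgeR adjusted p = 5.34e-05), a 2.54-fold lower level. On the opposite strand, genes cover 21.5% of its exonic bases (PLTP, NEURL2 and an unnamed gene), and these had at most 5 counts in any library.

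GAA (ENSG00000171298, chromosome 17 from 80101533 to 80119881) encodes acid alpha-glucosidase, the enzyme that degrades glycogen in the lysosome. Its counts were 29, 28, 41 and 27 under the label siCTRL and 11, 13, 8 and 10 under the label siAPEX1. Again no library of a group reached the other group, with 15.5 ± 2.39 CPM against 8.33 ± 2.02 CPM (mean ± SD, n = 4 each). The log2 fold change was -0.91 (SE 0.243, edgeR adjusted p = 0.00321).

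CTSD (ENSG00000117984, chromosome 11 from 1752752 to 1764573) encodes cathepsin D, the main aspartic protease of the lysosome. Counts of 73, 59, 76 and 50 stood against 34, 24, 25 and 21. Once scaled, the groups overlapped in a pair of libraries, since siAPEX1 replicate 1 stood at 28.0 CPM and siCTRL replicate 4 at 27.7 CPM. The log2 fold change of CTSD was -0.65 (SE 0.173, edgeR adjusted p = 0.00300). Genes on the same strand, ENSG00000229512 and ENSG00000250644, cover 27.3% of its exonic bases and had at most 2 counts in any library.

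CTSZ (ENSG00000101160, chromosome 20 from 58985686 to 59008238) encodes cathepsin Z, a cysteine carboxypeptidase. The libraries labelled siCTRL held 25, 28, 31 and 23 of its counts and those labelled siAPEX1 held 8, 8, 16 and 12. The scaled groups did not overlap, with 12.6 to 14.4 CPM against 6.49 to 11.5 CPM. Its log2 fold change of -0.62 (SE 0.245, edgeR adjusted p = 0.0474) lay at the threshold and was called under only 4 of the 15 alternative settings that could be fitted. Of the fits without 1 library, the one without siAPEX1 replicate 3 alone kept the call (-0.79, edgeR adjusted p = 0.0331). NELFCD, on the opposite strand, overlaps 31.7% of its exonic bases and had 6 to 9 counts per library.

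CTSB (ENSG00000164733), the cysteine protease cathepsin B, had the most counts of the hydrolases and was not called. It had 99, 105, 108 and 71 counts in the libraries labelled siCTRL and 80, 66, 71 and 74 in those labelled siAPEX1. After scaling the ranges of 39.3 to 50.9 CPM and 51.2 to 65.9 CPM did not overlap, and the log2 fold change was 0.26 (SE 0.125, edgeR adjusted p = 0.107). CTSA counts were 0.314 to 0.374 of the CTSB counts in the libraries labelled siCTRL and 0.0750 to 0.152 in those labelled siAPEX1, a comparison within each library that no scaling can change and that was chosen after the values were seen.

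The other 7 tested hydrolases had log2 fold changes of -0.72 to 0.03 and none passed the test. CTSC, the dipeptidyl peptidase that activates serine proteases of immune cells, stood at -0.72 (SE 0.313, edgeR adjusted p = 0.0751), the smallest adjusted p among the 20 uncalled members. A single library moved it, to -0.46 without siAPEX1 replicate 3 (edgeR adjusted p = 0.335) and to -0.94 without siAPEX1 replicate 1, where it was called (edgeR adjusted p = 0.0476). CTSL, a cysteine endopeptidase, had 89, 82, 75 and 53 counts in the libraries labelled siCTRL and 53, 41, 49 and 50 in those labelled siAPEX1. The scaled groups overlapped, with 29.3 to 44.8 CPM against 33.3 to 43.6 CPM, and the log2 fold change was 0.03 (SE 0.145). LGMN, the asparaginyl endopeptidase, and ASAH1, acid ceramidase, stood at -0.30 (SE 0.227) and -0.21 (SE 0.203). GLB1, beta-galactosidase, which cathepsin A protects, stood at -0.14 (SE 0.238), HEXA, the alpha subunit of beta-hexosaminidase, at -0.04 (SE 0.260), and TPP1, a tripeptidyl peptidase, at -0.03 (SE 0.262).

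CTSA, CTSC, CTSZ and GAA passed the filter in all 4 libraries labelled siCTRL and in 1 to 3 of those labelled siAPEX1. They entered the test through the group in which they were high, so the number of hydrolases called among those tested says nothing about hydrolases as a class, nor do the count below 0 and the median. Among all members 22 passed in all 8 libraries, and 0 passed in all 4 libraries labelled siAPEX1 but fewer of the others.

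PSAP (ENSG00000197746, chromosome 10 from 71816298 to 71851251) encodes prosaposin, the precursor of the saposins that present sphingolipids to hydrolases, and rose. It had 231, 225, 229 and 216 counts in the libraries labelled siCTRL and 198, 159, 243 and 163 in those labelled siAPEX1. After scaling the ranges were 106 to 120 CPM and 129 to 175 CPM and did not overlap. The log2 fold change was 0.41 (SE 0.104, edgeR adjusted p = 0.00210), and with library sizes alone it was 0.07 (edgeR adjusted p = 0.639), so the call depends on the scaling. GRN, progranulin, stood at 0.15 (SE 0.198), and NPC2, which takes cholesterol to NPC1, at -0.39 (SE 0.215, edgeR adjusted p = 0.175), neither called.

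CD63 (ENSG00000135404, chromosome 12 from 55725323 to 55729707), a tetraspanin of late endosomes, lysosomes and exosomes, had by far the most counts of the 40 genes and fell. Its counts were 786, 946, 858 and 942 in the libraries labelled siCTRL and 371, 357, 403 and 418 in those labelled siAPEX1. Levels of 443 ± 59.7 CPM and 304 ± 19.8 CPM (mean ± SD, n = 4 each) did not overlap. The log2 fold change was -0.54 (SE 0.0955, edgeR adjusted p = 1.75e-05).

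SCARB2 (ENSG00000138760, chromosome 4 from 76158737 to 76234536) encodes LIMP-2, the receptor that brings glucocerebrosidase to the lysosome. It had 27, 32, 35 and 33 counts under the label siCTRL and 32, 29, 31 and 36 under the label siAPEX1. The raw counts overlap, and the scaled levels do not, with 13.6 to 18.3 CPM against 22.3 to 28.6 CPM. It rose by a log2 fold change of 0.66 (SE 0.179, edgeR adjusted p = 0.00349), and with library sizes alone the value was 0.32 (edgeR adjusted p = 0.150).

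LAMP2 (ENSG00000005893, chromosome X from 120426148 to 120469365) encodes a major glycoprotein of the lysosomal membrane that also serves chaperone-mediated autophagy. Counts were 13, 16, 21 and 14 in the libraries labelled siCTRL and 25, 21, 21 and 11 in those labelled siAPEX1. The scaled groups overlapped, because siAPEX1 replicate 4 stood at 8.74 CPM and siCTRL replicate 3 at 9.73 CPM. The log2 fold change was 0.93 (SE 0.250, edgeR adjusted p = 0.00331), a 1.91-fold higher level, and 0.59 with library sizes alone (edgeR adjusted p = 0.0509). Its close relative LAMP1 stood at 0.23 (SE 0.209) with 110 counts against 82 in total, and NPC1, which exports cholesterol from the lysosome, at 0.34 (SE 0.268), neither called.

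**Figure D2:**
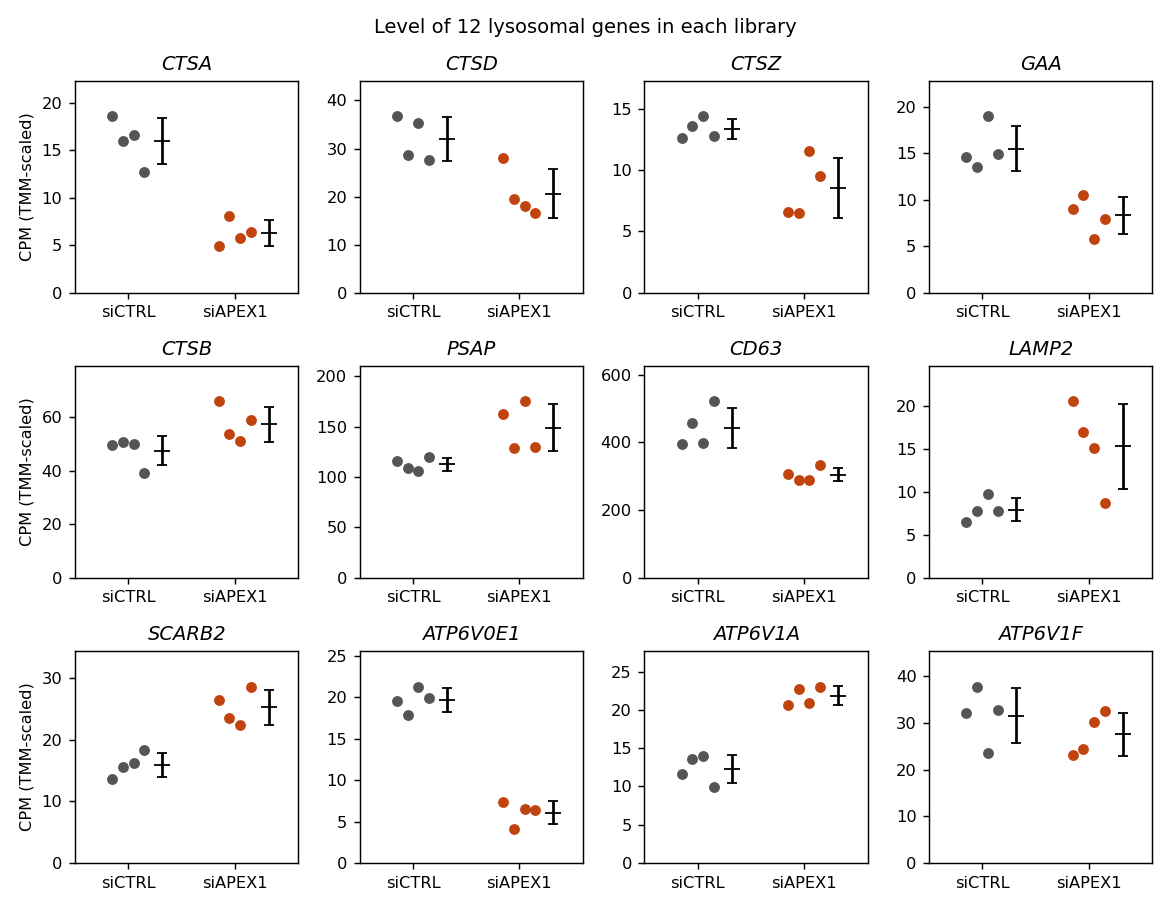
Level (CPM of the TMM-scaled library, vertical axes from 0) of the 10 called genes and of CTSB and ATP6V1F, the most counted uncalled hydrolase and V-ATPase gene, in each library. Each point is 1 library and the bar beside each group gives its mean and SD (n = 4). The groups stay apart for ATP6V0E1 (17.9 to 21.3 CPM against 4.06 to 7.41 CPM) and touch for CTSD and LAMP2.

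The V-ATPase showed the largest fall and a rise side by side. ATP6V0E1 (ENSG00000113732, chromosome 5 from 172983771 to 173035445) encodes the small e subunit of the V0 sector in the membrane. It had 39, 37, 46 and 36 counts in the libraries labelled siCTRL and 9, 5, 9 and 8 in those labelled siAPEX1. The groups lay far apart, at 19.7 ± 1.40 CPM and 6.08 ± 1.43 CPM (mean ± SD, n = 4 each). The log2 fold change was -1.68 (SE 0.242, edgeR adjusted p = 4.52e-07), a 3.21-fold lower level and the largest change of the 30 tested genes in this fit. It too passed the filter in all 4 libraries labelled siCTRL and in 1 labelled siAPEX1.

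ATP6V1A (ENSG00000114573, chromosome 3 from 113746770 to 113812056) encodes the catalytic A subunit of the V1 sector, where ATP is split. Its counts were 23, 28, 30 and 18 under the label siCTRL and 25, 28, 29 and 29 under the label siAPEX1. Scaled levels of 12.2 ± 1.84 CPM and 21.8 ± 1.25 CPM (mean ± SD, n = 4 each) did not overlap. It rose by 0.82 on the log2 scale (SE 0.194, edgeR adjusted p = 9.92e-04). In each library labelled siCTRL ATP6V1A had 0.500 to 0.757 times the counts of ATP6V0E1, and in each labelled siAPEX1 2.78 to 5.6 times, a ratio that does not depend on the scaling and was chosen after the values were seen.

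The other 6 tested subunits of V1 and both accessory proteins were not called. ATP6V1F, a subunit of the rotating central stalk, had 64, 78, 51 and 59 counts against 28, 30, 42 and 41, the most of these. The scaled groups overlapped (23.6 to 37.8 CPM against 23.1 to 32.6 CPM), and its log2 fold change was -0.18 (SE 0.163). ATP6V1E1 and ATP6V1G1, of the outer stalks, stood at 0.21 (SE 0.259) and 0.25 (SE 0.201), ATP6V1C1, which joins the stalks to V0, at -0.02 (SE 0.319), ATP6V1D, of the central stalk, at 0.07 (SE 0.298), and ATP6V1H, which restrains the free V1 sector, at -0.46 (SE 0.373). The accessory proteins ATP6AP1 and ATP6AP2, the latter known as the prorenin receptor, stood at 0.0035 (SE 0.255) and -0.12 (SE 0.160).

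Of the V0 sector only ATP6V0E1 was tested. ATP6V0D1, which links V0 to the central stalk, had 10 to 16 counts in the libraries labelled siCTRL and 3 to 7 in those labelled siAPEX1, and ATP6V0B, a proteolipid of the proton-carrying ring, 6 to 14 and 4 to 8. ATP6V0C, the main proteolipid of that ring, had 0 counts in all 8 libraries, which by counting error alone allows up to 3 counts each. Genes annotated on the same strand, ENSG00000259784 and ENSG00000260272, overlap 76.3% of its exonic bases and also had 0 counts. Reads that match several genes are left out by this kind of counting, so the level of ATP6V0C cannot be read from the table.

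The other 7 untested genes were low in every library. CTSH, an aminopeptidase, had 7 to 15 counts in the libraries labelled siCTRL and 1 to 6 in those labelled siAPEX1, and PPT1, which removes palmitate from proteins, had 4 to 15 and 1 to 5. GLA, alpha-galactosidase A, had 5 to 11 and 3 to 11, GUSB, beta-glucuronidase, 7 to 11 and 1 to 6, and NAGLU, which degrades heparan sulfate, 8 to 10 and 4 to 9. ATP6V1B2, the partner of the A subunit in V1, had 8 to 16 and 4 to 7 counts, and MCOLN1, the calcium channel TRPML1, at most 2 in any library.

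Summed over a class, the hydrolases reached 259 ± 28.7 CPM in the libraries labelled siCTRL and 223 ± 19.3 CPM in those labelled siAPEX1 (mean ± SD, n = 4 each), and the groups overlapped. The membrane proteins summed to 489 ± 61.7 CPM and 372 ± 21.9 CPM without overlap, the opposite direction to their median of 0.34, because CD63 made up 79.6% to 91.6% of the sum in each library. Without CD63, left out after the values were seen, the sum of the other membrane proteins was 45.9 ± 4.13 CPM and 67.1 ± 7.42 CPM, again without overlap and now higher under the label siAPEX1. This sum was not formed with library sizes alone, under which SCARB2 and LAMP2, both part of it, lost their calls. For the 3 other lumenal proteins the sums were 146 ± 8.54 CPM and 181 ± 25.0 CPM without overlap, 75.0% to 87.1% of it from PSAP. Without PSAP they were 33.1 ± 3.77 CPM and 31.4 ± 6.40 CPM and overlapped.

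The V-ATPase as a whole summed to 167 ± 9.51 CPM and 155 ± 11.3 CPM, which overlapped. Its V0 sector stood at 31.1 ± 2.86 CPM and 14.6 ± 2.07 CPM, which did not overlap and of which ATP6V0E1 gave 19.7 and 6.08 CPM. ATP6V0B (5.17 and 4.98 CPM) and ATP6V0D1 (6.21 and 3.55 CPM) each overlapped between the groups, so the V0 sum mostly describes ATP6V0E1. V1 stood at 96.0 ± 3.18 CPM and 103 ± 12.7 CPM, which overlapped. For all 40 genes together the sums were 1060 ± 28.5 CPM and 930.2 ± 39.2 CPM, a difference of -0.19 on the log2 scale without overlap of the groups. CD63 alone gave 443 and 304 CPM of these means and 31.1% to 47.6% of the sum in each library. The difference is therefore not read as one of the 40 genes as a set.

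**Figure D3:**
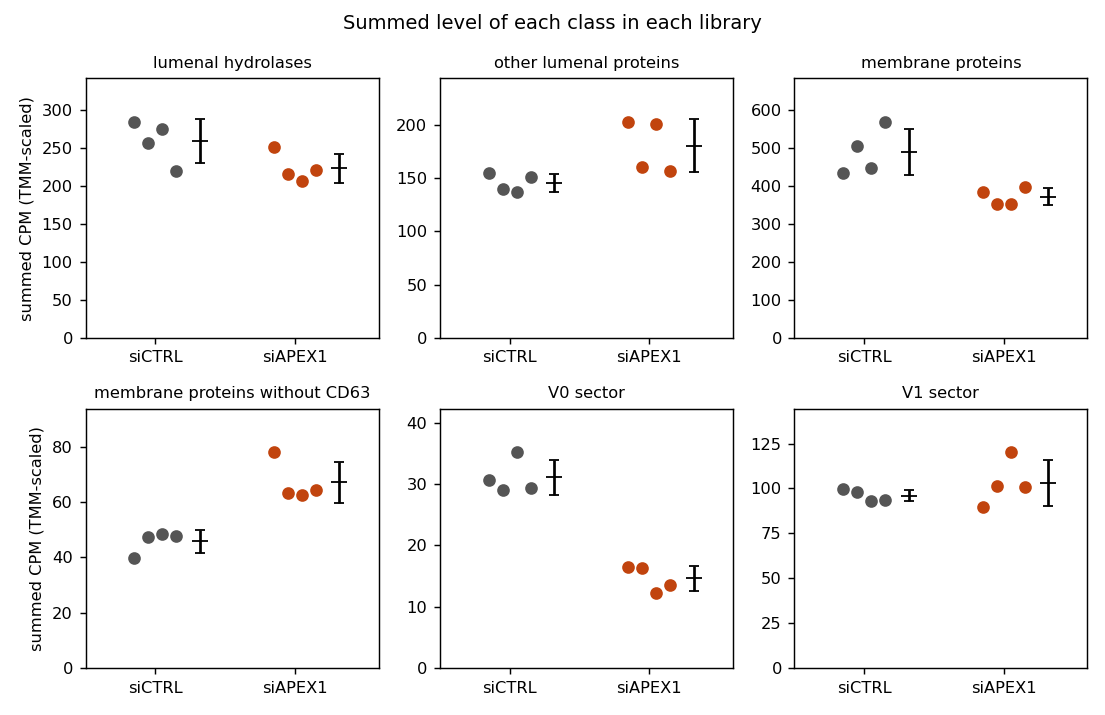
Summed level of each class (CPM of the TMM-scaled library, vertical axes from 0) in each library, as points with the mean and SD (n = 4) beside each group. The membrane proteins lie lower under the label siAPEX1 with CD63 (372 against 489 CPM) and higher without it (67.1 against 45.9 CPM). The V0 sum, most of which is ATP6V0E1 in the libraries labelled siCTRL, lies lower, while the V1 sums overlap.

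The balance of hydrolases against membrane proteins and pump subunits was compared as the ratio of their summed levels in each library. It was 0.399 ± 0.0730 in the libraries labelled siCTRL and 0.423 ± 0.0363 in those labelled siAPEX1, and the groups overlapped. Without CD63 the ratio was 1.21 ± 0.0979 and 1.005 ± 0.101, with siCTRL replicate 4 at 1.08 inside the range of the libraries labelled siAPEX1, which reached 1.13. The difference without CD63 was -0.28 on the log2 scale, beside an SD of 0.13 within the groups, and with CD63 it was 0.10 beside 0.22. Neither ratio was given a test, since the genes in it were chosen with results of these data known.

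Levels of different genes were set side by side per length of transcript, which takes reads to be spread over the whole transcript. The kit tails RNA at its 3′ end, and whether counts grow with length in these libraries was not tested. On that scale, CPM per kilobase of the canonical transcript, CD63 led in the libraries labelled siCTRL with 433, followed by ATP6V1F with 46.5, PSAP with 41.01 and CTSL with 22.5. CTSA stood at 8.61 and ATP6V0E1 at 13.9, and LAMP2 at 1.22 was the lowest of the tested genes. Under the label siAPEX1 the order began with CD63 at 298, PSAP at 54.3, ATP6V1F at 40.7 and CTSL at 22.97, while ATP6V0E1 went from place 7 to place 23 and CTSA from place 12 to place 24 among the 40. Many neighbours in this order differ by less than the spread between libraries.

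The called genes differed in transcript features that the list was not chosen on. The canonical transcripts of the 6 genes that fell were 1023 to 3751 bases long with 3′UTRs of 238 to 1083 bases, and those of the 4 genes that rose were 2748 to 6535 bases long with 3′UTRs of 1143 to 5175 bases, so the 3′UTR lengths did not overlap. Of the genes that fell, CTSA, CTSZ, GAA and ATP6V0E1 entered the test through the libraries labelled siCTRL, so nothing is read from this separation. Coding lengths did overlap, at 243 to 2856 and 1230 to 1851 bases. Over all called nuclear protein-coding genes the 3′UTR lengths overlapped widely, at 22 to 19545 bases for lower and 11 to 32870 bases for higher calls. GC contents of the lysosomal genes that fell and rose were 43.8% to 64.8% (median 57.5%) and 36.0% to 54.1% (median 41.2%). Over the 30 tested genes the log2 fold change had a Spearman rho of 0.54 with the length of the 3′UTR, 0.47 with that of the transcript and -0.32 with GC content. Over all 4857 nuclear protein-coding genes tested the same values were 0.13, 0.15 and -0.23, and the median log2 fold change went from 0.12 below 40% GC to -0.25 at 60% GC or more. CTSC and ATP6V1D, also among the 30, entered the test through the libraries labelled siCTRL too. Genes share their libraries as well, so these correlations across genes are descriptions. Beside the median of their band of GC content, the hydrolases TPP1, GLB1 and HEXA, with estimates below 0, lay above it by 0.13, 0.016 and 0.12. CTSB and CTSL also lay above it, and the other tested hydrolases below it. The part of length and GC content in the values and calls of the lysosomal genes was not tested.

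**Figure D4:**
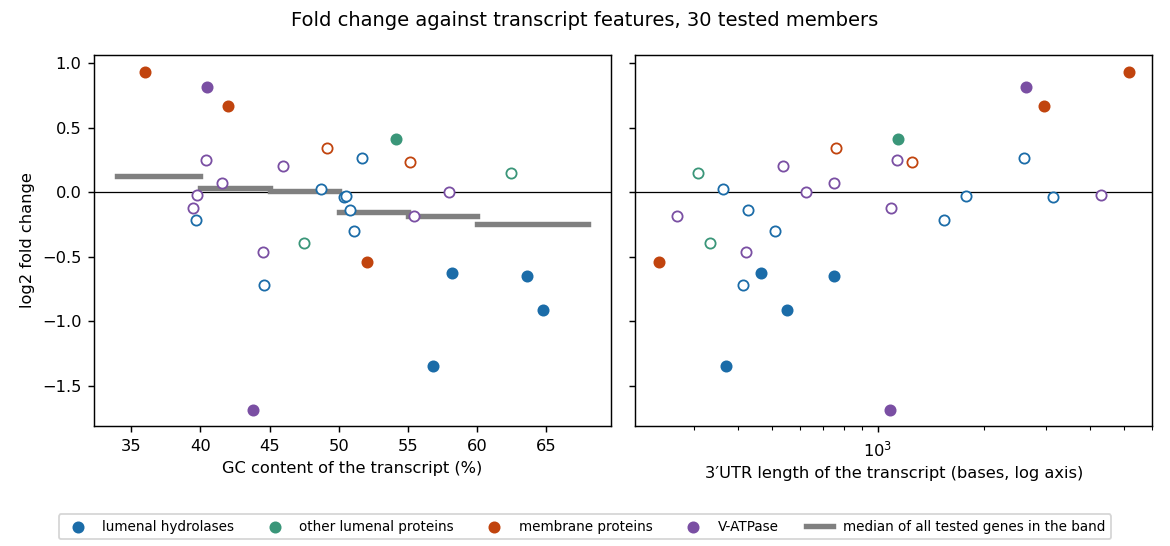
Log2 fold change of the 30 tested genes against the GC content of the transcript (left, with the median of all tested nuclear protein-coding genes in each band of GC content as grey lines) and against 3′UTR length on a log axis (right), filled for an adjusted p of at most 0.05. The 4 filled points above 0 have 3′UTRs of 1143 bases or more, and the grey lines step down from 0.12 to -0.25.

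The E-box was sought in the promoters, since many of these genes are known to carry it. RefSeq promoters (GRCh38.p14, 250 bases before to 50 after the start) were at hand for 28 of the 40 genes and not for CTSB, LGMN, HEXA, NAGLU, ASAH1, PSAP, LAMP2, ATP6V0E1, ATP6V1A, ATP6V1B2, ATP6V1C1 and ATP6V1H. CACGTG, which reads the same on both strands, occurred in 9 of the 28 (32.1%), against 7.43% of all 27305 promoters in the table and 10.5% of those of tested genes. The longer TCACGTGA, which contains it, occurred in 6 of the 28 (21.4%), against 1.04% and 2.001%. Of the 5 genes that fell and had a promoter, CTSA, CTSD, GAA and CD63 held CACGTG and CTSZ did not. The windows of 24 bases around 1 copy in each of these 4 genes are shown with those of LAMP1 and ATP6V1G1, the only uncalled tested genes with a copy. The capitals mark CACGTG, and each is read 5′ to 3′ on the strand of its gene.
CTSA, chr20:45891301-45891324, plus strand: gccggagttCACGTGactcgtaca
GAA, chr17:80101541-80101564, plus strand: cccgccggtCACGTGacccgcctc
CTSD, chr11:1763960-1763983, minus strand: ggccgcgccCACGTGaccggtccg
CD63, chr12:55729175-55729198, minus strand: ggtaggggcCACGTGgccctggcc
LAMP1, chr13:113297202-113297225, plus strand: ccgcgggatCACGTGacgcccggg
ATP6V1G1, chr9:114587702-114587725, plus strand: ctgtgcggtCACGTGacaacgggg

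The windows of CTSA, GAA, LAMP1 and ATP6V1G1 share the longer form TCACGTGA, and those of CTSD and CD63 hold only the core. CTSA and GAA each held 2 copies of CACGTG and LAMP1 held 6. The 6 tested members with a copy had a median log2 fold change of -0.60 (range -1.34 to 0.25), and the 14 tested members with a promoter and no copy one of -0.01 (range -0.72 to 0.66). CTSA and GAA, the lowest of the 6, entered the test through the libraries labelled siCTRL. Without the members that did so the median was -0.16 over 4 members with a copy and 0.0035 over 11 without, so nothing is read from this difference. Over all nuclear protein-coding genes tested, the 424 with a copy had a median of 0.0064 and the 3618 without one a median of -0.038. SCARB2 was the only gene that rose with a promoter in the table, and it held no copy. MCOLN1, ATP6V0B and ATP6V0D1 held copies and were not tested. These letters are a description of the windows and not evidence of binding.

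Further lysosomal genes were taken from lists of 121 genes that are no members, of which 40 were tested and 12 (30%) called, 2 higher (5% of those tested, beside 15.9% of all genes) and 10 lower (25%, beside 15.8%). CTSS, SORT1, AP1G1, MITF and LAMTOR4, 5 of the 10 lower genes, passed the filter in all 4 libraries labelled siCTRL and in 0 to 3 of those labelled siAPEX1, so the split is no support for a direction. Among 36 other hydrolases and lumenal proteins 9 were tested, 1 rose and 4 fell. IDS, iduronate sulfatase, fell by 1.09 on the log2 scale (SE 0.103, edgeR adjusted p = 2.01e-11), with 285 to 323 counts in the libraries labelled siCTRL and 81 to 96 in those labelled siAPEX1. CTSS, cathepsin S, fell by 2.17 (SE 0.366, edgeR adjusted p = 8.06e-06), from 15 to 22 counts to 2 to 4. LIPA, lysosomal acid lipase, rose by 0.96 (SE 0.233, edgeR adjusted p = 0.00122).

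Of 22 other membrane proteins 6 were tested and 1 was called, LAPTM4B, which rose by 0.68 (SE 0.169). Of 20 other V-ATPase subunits and assembly factors 4 were tested and 0 were called. A list of 14 genes joined those of mannose 6-phosphate tagging with receptors and adaptors of sorting to the lysosome, not all bound to that tag. Of these, 9 were tested, with GNPTAB as the only tagging gene, and 3 fell (33.3%, beside 15.8% of all genes). The sorting receptor SORT1 fell by 1.05 (SE 0.335), the AP-1 adaptor subunit AP1G1 by 0.92 (SE 0.269) and the AP-3 adaptor subunit AP3D1 by 0.46 (SE 0.132). SORT1 and AP1G1 entered the test through the libraries labelled siCTRL. Since nearly all tested genes of the list were sorting genes, nothing is read from the role of those that fell. Both mannose 6-phosphate receptors were tested and not called, IGF2R at 0.05 (SE 0.195) and M6PR at -0.07 (SE 0.282).

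Of 22 genes of the TFEB family and of mTORC1 signalling at the lysosome, 10 were tested and 2 fell, MITF, a relative of TFEB, by 0.82 (SE 0.253) and LAMTOR4, a Ragulator subunit, by 0.72 (SE 0.250). TFEB had 2 to 6 counts in the libraries labelled siCTRL and 0 to 1 in those labelled siAPEX1, and TFE3 10 to 23 and 3 to 8, both under the filter. Of 7 inhibitors of cysteine proteases 2 were tested, and CSTB, cystatin B, fell by 0.89 (SE 0.195, edgeR adjusted p = 3.79e-04) while CST3, cystatin C, stood at -0.02 (SE 0.131).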

How the data were processed

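RNA-seq libraries of A549 cells were made with the SMARTer smRNA-Seq kit, which tails RNA at its 3′ end and was modified to read primary miRNA transcripts too. The authors removed adapters and tails, aligned the reads to GRCh38 with STAR 2.5.3a and deposited raw gene counts per library, without normalization. The Ensembl release and the strand setting are not given in the sources used here. Of the 58302 identifiers, 57532 are in GENCODE 44.

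Members and lists were chosen with earlier results of these data known. Counts were tested with edgeR 4.0.16 in R 4.3.3 (TMM factors, quasi-likelihood test, Benjamini-Hochberg adjustment over 5368 genes), a script tested on simulated data. The filter, filterByExpr, asked for 15 counts in total and for 6.14 CPM of the unscaled library in any 4 libraries. That level is 10 counts at the median library size. The SE is the absolute log2 fold change divided by the square root of F. CPM express counts relative to the TMM-scaled library, with no prior count. Alternatives were RLE factors, upper-quartile factors, library sizes alone, TMM factors from protein-coding genes, DESeq2 1.42.0, looser and stricter filters, a log2 fold threshold of 0.75, a block for the replicate number and fits without each library. Counts per library are given for every called member and for the most counted uncalled hydrolase and V-ATPase gene, 12 in all, and for CTSL, added later, and for the further lists the called genes are named, 12 at most, except some that are counted but not reported here by name. Overlaps are of GENCODE 44 exons. Intervals and floors cover counting error only.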

Additional observations from a re-analysis of the deposited data

Results flagged for a closer look

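Of 72 groups of 4 values examined, the tested members and the summed classes under each label, 4 had 1 library far from the other 3, where chance flags about 1 group in 20. CTSB stood at 39.3 CPM in siCTRL replicate 4, below the 49.8 to 50.9 CPM of the other libraries labelled siCTRL. LGMN stood at 7.94 CPM in siAPEX1 replicate 4, below 11.5 to 12.3 CPM in the other libraries of its label. The membrane proteins without CD63 summed to 39.7 CPM in siCTRL replicate 1, below 47.5 to 48.7 CPM, and to 78.2 CPM in siAPEX1 replicate 1, above 62.7 to 64.3 CPM. Both of these libraries lie away from the opposite group, so the groups stay apart without them.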

How the results depend on the processing

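CTSA, CTSD, GAA, CD63, ATP6V0E1 and ATP6V1A were called under each of the 15 or 16 alternatives in which they were tested, and all 10 called members kept their direction. CTSZ was lost under 11 of 15, with adjusted p-values up to 0.177 (DESeq2), and PSAP, LAMP2 and SCARB2 with library sizes alone. With library sizes alone, which moved the median of all genes by about -0.34 and so shifts every value by construction, 1 member was called higher, 12 lower and 4 with the fold threshold, the class medians were -0.38 (all members), -0.60 (hydrolases), -0.20 (other lumenal), 0.0023 (membrane) and -0.35 (V-ATPase), and the log2 differences of the sums were -0.53, -0.55, -0.041, -0.73 and -0.45 in that order. CTSB (-0.079), CTSL (-0.32), GRN (-0.20), LAMP1 (-0.11), ATP6V1D (-0.27), ATP6V1E1 (-0.14), ATP6V1G1 (-0.092) and ATP6AP1 (-0.34) changed sign there. With at least 10 counts in every library, which tests 19 members, 2 were called lower, 0 with the fold threshold and 7 of the further lysosomal genes, with 181 genes overall past the fold threshold, a sum over all members of -0.28 and CTSL at -0.062. With every gene of at least 1 count, 943 genes passed the fold threshold, the median of all members was -0.18, the sums over all members and the V-ATPase were -0.28 and -0.20, and CTSL (-0.070), ATP6V1D (-0.025) and ATP6AP1 (-0.090) changed sign. DESeq2 called 1123 genes and 7 further lysosomal genes. A fold threshold of 0.75 gave 935 genes and 5 members. TMM factors from protein-coding genes gave TPP1 0.013, HEXA 0.0034 and ATP6V1C1 0.020, and upper-quartile factors ATP6AP1 -0.0043. Other causes were not tested.

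Leaving out 1 library at a time gave 4 members higher and 5 or 6 lower in each case. Uncalled members that changed sign ranged from -0.061 to 0.12 (CTSL), -0.092 to 0.11 (TPP1), -0.26 to 0.062 (GLB1), -0.22 to 0.12 (HEXA), -0.34 to 0.18 (ATP6V1C1), -0.10 to 0.30 (ATP6V1D), -0.034 to 0.36 (ATP6V1E1), -0.072 to 0.14 (ATP6AP1) and -0.19 to 0.025 (ATP6AP2). Replicate numbers are shared between the labels, and the deviations of same-numbered libraries correlated at -0.037 to -0.0035. This gives no sign of pairing but cannot exclude it, since counting error at these depths can hide shared deviations. With the replicate block 1595 genes were called, with 4 members higher and 5 lower, CTSZ being lost.

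At 1348386 to 1949886 counts per library, 10 of the 40 genes lay under the filter, and uncalled members had standard errors of 0.125 to 0.373 on the log2 scale.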
